A study of Mus musculus with 8 samples.

Results

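The choroid plexus and ependymal cilia genes are 46 symbols of the deposited count table, 16 of them genes of the choroid plexus epithelium and 30 of them genes of motile cilia and of the ependymal cells that bear them. They were chosen by name from a list, and all 46 were found among the 53278 symbols of the table. All 46 passed the filter on low counts that kept 20140 genes for testing. Across 8 mouse forebrains 43 of the 46 had a larger SD of log2 level than the median gene tested, a comparison not matched for level. Ccdc39, Drc1 and Cfap54 were the others. None of the 46 was called changed after microglia had been depleted.

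The data are bulk sequencing of whole forebrain total RNA from 8 mice, all male C57BL/6J and between 10 and 20 weeks of age. The control group was 4 mice on control food, and the depleted group was 4 mice on food with PLX3397, which blocks CSF1R, the receptor kinase that keeps microglia alive, in both groups for 9 days. None of the mice is described as carrying a transgene or a deleted gene. PLX3397 reaches the whole animal and also acts on other kinases, so the groups may differ in more than microglia. Each sample is labelled as its own mouse, and errors are SDs over 4 mice, or SEs of the fitted model where marked SE.

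The choroid plexus is a folded epithelium in the brain ventricles that secretes cerebrospinal fluid, carries hormones and vitamins into it, and seals the blood from it with tight junctions. Ependymal cells line the ventricle walls and carry tufts of motile cilia that move this fluid, and choroid plexus cells are also ciliated. A motile cilium holds a ring of microtubule doublets around a central pair; dynein arms on the doublets make it beat, and radial spokes and a regulatory complex control the beat. The forkhead factor Foxj1 and the RFX factors, which bind a paired sequence called the X-box, switch on much of the motile cilia programme, while Otx2 is a master regulator of the choroid plexus.

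Promoter sequence was examined first, from the RefSeq table of the GRCm38.p6 build, in windows from 250 bases before to 50 bases after each annotated start. Of the members 35 had at least 1 window, 11 of the choroid plexus genes (18 windows) and 24 of the ciliary genes (26 windows). The X-box was searched as GTTNCC, 0 to 3 bases and GGNAAC, which reads the same on both strands. It was in 2 ciliary windows (7.69%), those of Pifo and Fam183b, in 0 choroid plexus windows, and in 264 of all 32851 windows (0.804%). These windows are shown because they hold the complete motif, which is in capitals. Pifo encodes a protein at the cilium base and its window is chr3:106001448-106001747 on the minus strand, with the motif beginning 20 bases before the start. Fam183b, a small ciliary protein gene, has its window at chr11:58801911-58802210 on the minus strand, with the motif beginning 16 bases before the start.
Pifo: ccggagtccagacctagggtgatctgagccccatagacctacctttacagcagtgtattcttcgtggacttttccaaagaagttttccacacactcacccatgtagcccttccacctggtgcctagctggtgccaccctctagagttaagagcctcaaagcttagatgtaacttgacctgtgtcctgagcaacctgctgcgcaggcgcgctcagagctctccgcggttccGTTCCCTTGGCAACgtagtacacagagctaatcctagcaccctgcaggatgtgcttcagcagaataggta
Fam183b: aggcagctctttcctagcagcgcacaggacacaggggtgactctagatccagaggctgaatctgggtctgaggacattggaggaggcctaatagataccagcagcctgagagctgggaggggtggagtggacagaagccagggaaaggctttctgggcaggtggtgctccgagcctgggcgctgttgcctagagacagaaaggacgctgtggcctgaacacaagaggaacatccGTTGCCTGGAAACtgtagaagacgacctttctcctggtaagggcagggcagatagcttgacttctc

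The single arm GTTGCC of the X-box, on either strand, a search added after these sequences had been seen, was in 13 of 26 ciliary windows (50%) and 4 of 18 choroid plexus windows (22.2%), against 12.5% of all windows. It overlaps the X-box as searched, and in Pifo and Fam183b an arm lies inside it. The choroid plexus windows with an arm belong to 3 genes, and overlapping windows of Otx2 share a site. The window of Spag16, a central pair protein, is shown as an example with 2 such arms in inverse orientation, in capitals. The arm GGCAAC comes before GTTGCC, the opposite order to the X-box as searched. The first begins 111 bases before the start at chr1:69826720-69827019 on the plus strand. Windows of Tekt1 and Lrrc23 also hold 2 arms in this order, farther apart than the gap of the X-box search. Those of Cfap44 and Fam183b hold 2 in the same orientation. The forkhead motif GTAAACA, on either strand, was in 3 ciliary windows (Ak7, Cfap43 and Mlf1; 11.5%), in 1 choroid plexus window (Prlr; 5.56%) and in 3.65% of all windows. Ak7, an adenylate kinase of the axoneme, is shown with this motif in capitals on the reverse strand, beginning 131 bases before the start at chr12:105705732-105706031 on the plus strand. The OTX motif GGATTA, on either strand, was in 4 ciliary windows (15.4%), in 1 choroid plexus window (a window of Otx2 itself; 5.56%) and in 7.06% of all windows. A match of letters is a description of the window and no evidence of binding.
Spag16: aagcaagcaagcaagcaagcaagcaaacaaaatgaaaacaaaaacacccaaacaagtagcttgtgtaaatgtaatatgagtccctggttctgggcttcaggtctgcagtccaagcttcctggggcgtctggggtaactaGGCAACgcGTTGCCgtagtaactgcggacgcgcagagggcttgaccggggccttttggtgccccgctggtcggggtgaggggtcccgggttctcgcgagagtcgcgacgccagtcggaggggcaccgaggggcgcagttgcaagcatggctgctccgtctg
Ak7: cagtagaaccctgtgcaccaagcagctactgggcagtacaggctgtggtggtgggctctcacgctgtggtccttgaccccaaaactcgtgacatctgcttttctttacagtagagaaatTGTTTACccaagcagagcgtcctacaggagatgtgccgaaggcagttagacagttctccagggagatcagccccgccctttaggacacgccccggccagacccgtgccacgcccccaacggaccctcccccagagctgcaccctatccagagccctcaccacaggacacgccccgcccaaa

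The libraries held between 48455538 and 68406688 counts, so that 1 CPM, the unit of level throughout (counts scaled to library size by TMM), stood for 48.6 to 69.3 counts. Members had between 14 and 34558 counts in a library. The 14 microglia markers tested checked the labels: all 14 were lower in depleted mice, with a median log2 fold change of -5.49, and their summed level was 277 to 335 CPM in control and 17.3 to 23.9 CPM in depleted mice. Several libraries stood apart before any comparison. Hcrt, a neuropeptide gene of the lateral hypothalamus, had 1578, 1628, 1249 and 2081 counts in control mice 2 and 3 and depleted mice 2 and 3, and at most 12 in the other 4 mice. Depleted mouse 1 had the lowest level of 13 of the 16 choroid plexus genes, whereas it was the lowest mouse for 14.5% of all genes tested. Results that rest on this mouse are given below with and without it. In every one of the 46 members the control and depleted values overlapped, where 5.77% of all genes tested had groups that did not overlap.

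Levels of different genes were compared per kilobase of exon in the GENCODE M21 annotation of the same build. On this scale Ttr, at a median over mice of 351 CPM per kilobase, was far above every other member. Enpp2 followed at 40.2 and Igfbp2 at 19.8 CPM per kilobase. Among ciliary genes the highest were Drc1 at 7.64, Fam183b at 5.62 and Foxj1 at 3.64 CPM per kilobase. The lowest were the central pair gene Hydin at 0.104 and the dynein gene Dnah11 at 0.0716. In a bulk library fewer cells of a type and less RNA per cell cannot be told apart, and neither can the amount of ventricle lining that was dissected.

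**Figure D1:**
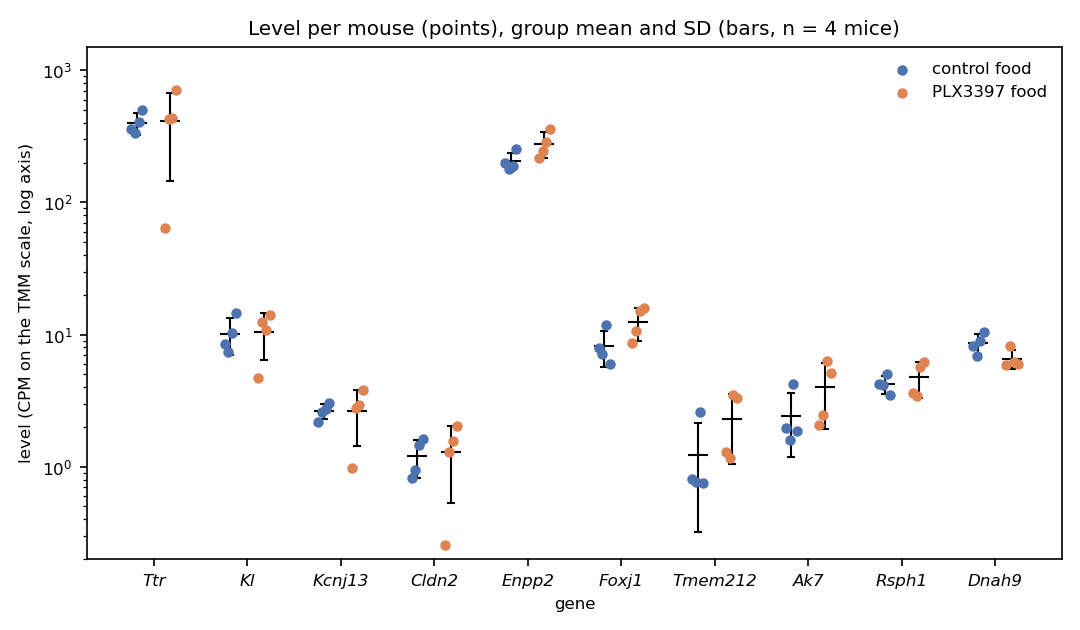
Level of 10 members in each mouse, in CPM on a log axis, with points for mice (blue control food, orange PLX3397 food) and bars for the group mean and SD (n = 4 mice). Ttr, Kl, Kcnj13 and Cldn2 each have 1 low orange point, depleted mouse 1, while Tmem212 and Ak7 have 1 high blue point, control mouse 3.

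Carriers and receptors of the choroid plexus came first. Ttr encodes transthyretin, the thyroxine carrier secreted into cerebrospinal fluid and the leading transcript of this epithelium. It was at 356, 335, 404 and 504 CPM in control mice 1 to 4 and at 63.9, 429.5, 438 and 711 CPM in depleted mice 1 to 4. The lowest and the highest of the 8 mice were both depleted mice, and depleted mouse 1 held 14.9% of the median of the other 7. Its fitted log2 fold change was 0.039 with a 95% interval of -1.12 to 1.20, so that a 2-fold difference in either direction was within it, and 0.39 without depleted mouse 1. Folr1, the folate receptor that carries the vitamin into the ventricle, was at 1.42, 0.453, 1.29 and 1.63 CPM in control mice and 0.526, 0.875, 2.74 and 3.31 CPM in depleted mice. Control mouse 2 was even lower than depleted mouse 1 for Folr1, and depleted mice 3 and 4 were the 2 highest. The difference, a log2 fold change of 0.63 (SE 0.57, edgeR adjusted p = 0.749), was within the spread.

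Kl encodes klotho, a coreceptor for hormonal fibroblast growth factors that is shed into the fluid. Its levels were 8.44, 7.35, 10.3 and 14.4 CPM in control mice 1 to 4 and 4.72, 12.5, 10.8 and 13.9 CPM in depleted mice 1 to 4. Depleted mouse 1 was again lowest, while control mouse 4 and depleted mouse 4 were nearly level at the top. Prlr, the prolactin receptor, did not show this pattern as clearly. It was at 8.44, 11.4, 15.3 and 7.4 CPM in control mice and 7.2, 12.2, 14.4 and 13.1 CPM in depleted mice. Its highest mouse was control mouse 3. Part of its exons is shared on the same strand with the annotated gene Gm21973.

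Ion and water transport members repeated the low value of depleted mouse 1. Kcnj13, a potassium channel of the apical membrane, was at 2.19, 2.57, 2.74 and 3.05 CPM in control mice and 0.979, 2.79, 2.94 and 3.81 CPM in depleted mice. Its control values lay within a narrow range and of the depleted values 2 were inside it, 1 above it and that of mouse 1 far below it. Kcnj13 shares exon bases with Gigyf2 on the opposite strand. Kcne2, the beta subunit of a potassium channel, and Slc4a5, a sodium bicarbonate cotransporter, were at 60.3% and 20.1% of the median of the other 7 mice in depleted mouse 1. Slc4a5 had the widest range of all 46 members, its highest mouse, depleted mouse 4, being 11.8 times its lowest. Aqp1, the apical water channel, was at 5.61, 1.09, 1.65 and 2.26 CPM in control mice and 0.762, 1.51, 2.09 and 3.06 CPM in depleted mice. Control mouse 1 alone was high for Aqp1, and without it the log2 fold change turned from -0.52 to 0.15. Clic6, an intracellular chloride channel protein, departed from the rest, with 6.14, 13.6, 14.4 and 9.58 CPM in control mice and 13.3, 11.2, 26.4 and 23.7 CPM in depleted mice. Its lowest mouse was control mouse 1, and depleted mouse 1 was at 97.9% of the median of the others. It had a log2 fold change of 0.78 (SE 0.33, edgeR adjusted p = 0.424).

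The tight junction and identity members followed Ttr. Cldn2, the claudin that makes the choroid plexus junction permeable to cations, was at 0.822, 0.947, 1.45 and 1.61 CPM in control mice and 0.254, 1.28, 1.57 and 2.04 CPM in depleted mice, and depleted mouse 1 held 17.5% of the median of the others. Otx2, the transcription factor that specifies the choroid plexus, was at 4.37, 1.63, 4.04 and 2.18 CPM in control mice and 1.23, 2.52, 3.75 and 5.25 CPM in depleted mice. Control mouse 2 was nearly as low for Otx2 as depleted mouse 1. Otx2 shares exon bases with Gm49154 on its own strand and with Otx2os1 on the opposite one, so its counts may include reads of both. Sostdc1, a secreted inhibitor of BMP and Wnt signals, Tmem72, a membrane protein gene, and Calml4, a calmodulin-like gene, were at 38.3%, 28.7% and 30.3% of the median of the others in depleted mouse 1.

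The remaining choroid plexus members, both secreted proteins, are also made by other brain cells. Enpp2 encodes autotaxin, which makes lysophosphatidic acid and is also a product of oligodendrocytes. It was at 200.02, 179.9, 188 and 252 CPM in control mice and 218, 246, 284 and 360.3 CPM in depleted mice. Depleted mouse 1 was not low for Enpp2, and all 4 depleted mice were above 3 of the 4 control mice. It had the smallest p of the set, with a log2 fold change of 0.44 (SE 0.16, edgeR adjusted p = 0.362) and an unadjusted p of 0.0213. The 10 oligodendrocyte and myelin markers had a median log2 fold change of 0.46, all 10 of them positive, with 0 called by edgeR, 7 at an unadjusted p under 0.05, 3 called by DESeq2 and 0 by limma-voom; their part in the Enpp2 values was not tested. Igfbp2, an insulin-like growth factor binding protein also made by astrocytes and meninges, was at 44.8, 38.3, 35.3 and 36.1 CPM in control mice and 30, 40.1, 30.1 and 37 CPM in depleted mice. With an SD over all mice of 0.20 on the log2 scale it was the steadiest choroid plexus member.

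**Figure D2:**
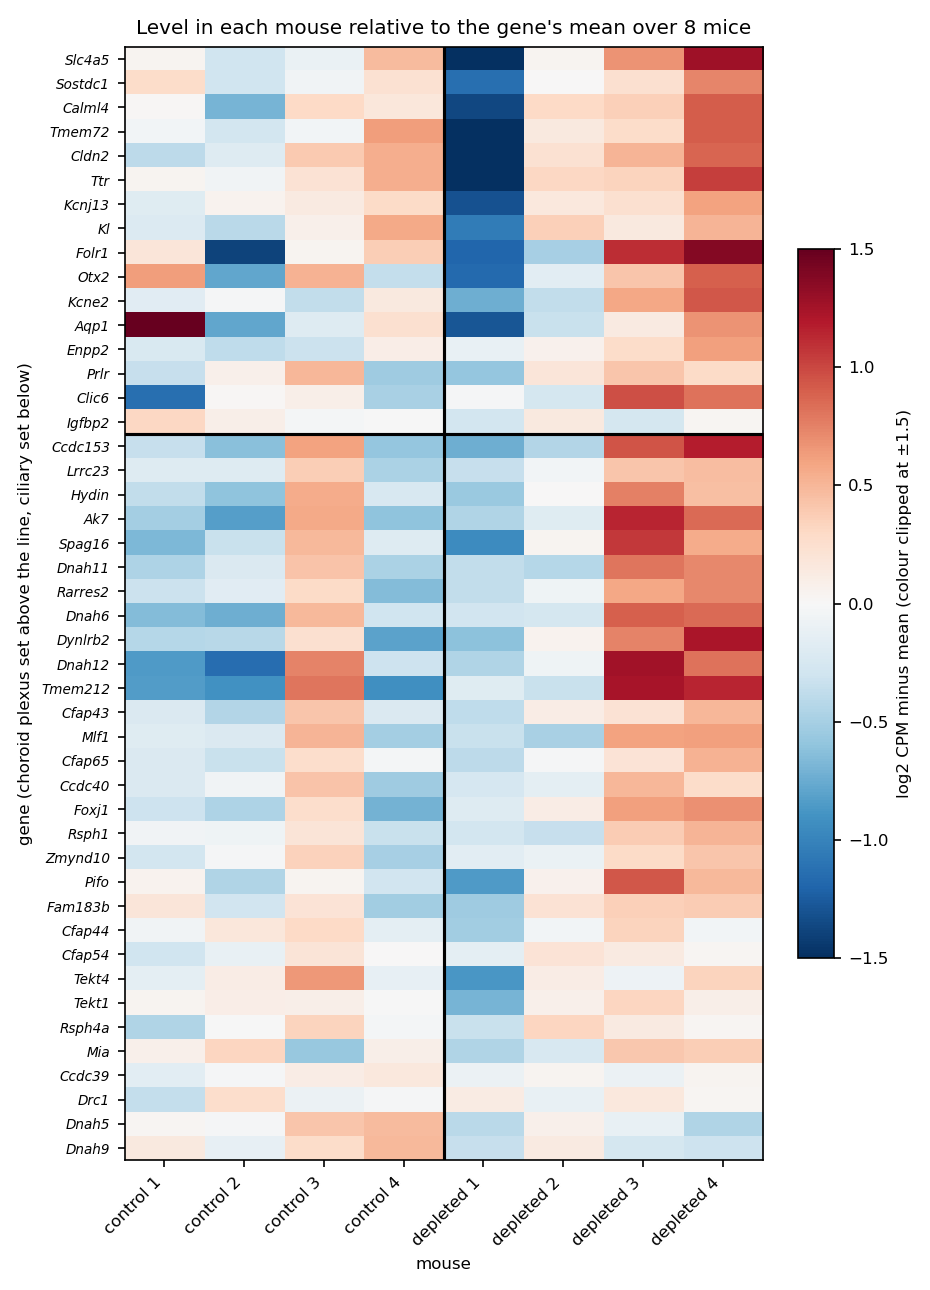
Log2 CPM of each member minus that gene's mean over the 8 mice, by mouse (columns) and gene (rows), with colour clipped at 1.5 in both directions, the choroid plexus set above the horizontal line and the vertical line between control and depleted mice. Blue in the depleted mouse 1 column runs through 13 of 16 choroid plexus rows as the lowest value, and red in control mouse 3, depleted mouse 3 and depleted mouse 4 runs through 18 of 30 ciliary rows as the 3 highest.

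Ciliary members showed another pattern, led by Foxj1, the forkhead factor without which motile cilia do not form. Foxj1 was at 7.91, 7.11, 11.7 and 5.96 CPM in control mice 1 to 4 and 8.56, 10.6, 15.1 and 15.8 CPM in depleted mice 1 to 4. Control mouse 3, depleted mouse 3 and depleted mouse 4 were the 3 highest, and the groups overlapped. Its log2 fold change of 0.61 (SE 0.24, edgeR adjusted p = 0.40) was among the smaller p-values of the set (unadjusted p = 0.031). The same 3 mice were the top 3 for 18 of the 30 ciliary genes, for 3 of the 16 choroid plexus genes and for 3.04% of all genes tested; these 3 mice were singled out after the values had been seen.

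Ependymal marker genes Ccdc153, Tmem212 and Rarres2 ranked the same 3 mice on top. Ccdc153, a coiled-coil protein gene typical of ependymal cells, was at 2.85, 2.35, 5.53 and 2.42 CPM in control mice and 2.18, 2.66, 7.03 and 8.25 CPM in depleted mice. Tmem212, a membrane protein gene of multiciliated cells, was at 0.804, 0.762, 2.59 and 0.758 CPM and 1.29, 1.16, 3.51 and 3.29 CPM. In both genes control mouse 3, depleted mouse 3 and depleted mouse 4 stood well above the other 5 mice, which lay close together. Rarres2, which encodes the secreted adipokine chemerin, was at 3.84, 4.24, 5.84 and 3.03 CPM in control mice and 3.72, 4.58, 7.2 and 7.9 CPM in depleted mice; it overlaps Lrrc61 on the opposite strand. Mia, a secreted protein gene, did not follow them: it was at 0.542 ± 0.139 CPM with control food and 0.562 ± 0.173 CPM with PLX3397, and its lowest mouse was control mouse 3. Mia shares exon bases with Gm21983 on its own strand.

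Dynein genes divided. Dnah11, an outer arm heavy chain, was at 0.913, 1.09, 1.73 and 0.906 CPM in control mice and 0.979, 0.936, 2.25 and 2.12 CPM in depleted mice, with the same 3 mice on top. Dnah6 and Dnah12, inner arm heavy chains, and Dynlrb2, a dynein light chain, also had these 3 mice highest, with log2 fold changes of 0.63, 0.76 and 0.83. Dnah5, the outer arm heavy chain most often mutated in primary ciliary dyskinesia, was at 5.57, 5.38, 7.28 and 7.62 CPM in control mice and 4.12, 5.74, 5.05 and 3.97 CPM in depleted mice. Depleted mouse 4, the top mouse for 11 ciliary members, was its lowest. Dnah9, another outer arm heavy chain, was at 8.22, 6.84, 8.97 and 10.4 CPM in control mice and 5.84, 8.14, 6.2 and 5.99 CPM in depleted mice. Dnah5 had a log2 fold change of -0.45 (SE 0.16, edgeR adjusted p = 0.362) and Dnah9 a log2 fold change of -0.40 (SE 0.15, edgeR adjusted p = 0.387). These were the only members below an unadjusted p of 0.05 with lower levels in depleted mice, and neither passed the adjusted threshold. Dnah6, Dnah9 and Dnah11 share exon bases with a gene on the opposite strand (Gm20560, Gm12296 and Cdca7l).

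Spoke, central pair and doublet members did not follow a single pattern. Rsph1, a radial spoke head protein, was at 4.2, 4.16, 5.0 and 3.46 CPM in control mice and 3.59, 3.44, 5.7 and 6.23 CPM in depleted mice. Its 3 highest mice were those of Foxj1, over a narrower range. Rsph4a, another spoke head gene, was at 4.92 ± 1.07 CPM with control food and 5.16 ± 0.952 CPM with PLX3397 and did not rank these mice on top. Hydin, a giant protein of the central pair, was at 1.55, 1.32, 2.98 and 1.7 CPM in control mice and 1.36, 2.03, 3.43 and 2.78 CPM in depleted mice, and shares exon bases with Gm26832 on the opposite strand. Spag16, also of the central pair, was at 0.80 ± 0.303 CPM with control food and 1.12 ± 0.60 CPM with PLX3397. Hydin and Spag16 both had the 3 highest mice of Foxj1. Tekt1, a tektin filament protein inside the doublets, was at 2.58, 2.68, 2.65 and 2.48 CPM in control mice and 1.52, 2.62, 3.12 and 2.65 CPM in depleted mice. The control values of Tekt1 were nearly identical and depleted mouse 1 alone was low, the choroid plexus pattern. Tekt4 was likewise lowest there, at 49.4% of the median of the others.

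Regulatory and assembly members held both steady and variable genes. Drc1, of the dynein regulatory complex, was at 20 ± 3.51 CPM with control food and 21.2 ± 1.73 CPM with PLX3397. Ccdc39, which with Ccdc40 forms the ruler that spaces the inner arms, was at 27 ± 2.65 CPM with control food and 26.1 ± 1.39 CPM with PLX3397 and had the smallest SD over all mice of any member, 0.11 on the log2 scale; it shares exon bases with Ttc14 on the opposite strand. Its partner Ccdc40 was at 3.62 ± 1.05 CPM with control food and 4.09 ± 1.01 CPM with PLX3397 and ranked control mouse 3, depleted mouse 3 and depleted mouse 4 on top. So did Zmynd10, a dynein assembly factor (4.61 ± 1.21 CPM with control food and 5.34 ± 1.05 CPM with PLX3397), and Ak7 (2.41 ± 1.22 CPM with control food and 4.0 ± 2.05 CPM with PLX3397). Cfap43 and Cfap65, cilia and flagella associated proteins, and Lrrc23, a spoke protein, also had these mice on top, with log2 fold changes of 0.22, 0.18 and 0.25, as did Mlf1 at 0.25. Cfap44, Cfap54, Pifo and Fam183b did not, with log2 fold changes of -0.11, 0.10, 0.46 and 0.23. Cfap43 overlaps Itprip and Gm22240 on its own strand.

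The spread between mice was wide. The median SD of log2 CPM over the 8 mice was 0.69 for choroid plexus members and 0.38 for ciliary members, against 0.20 for all genes tested. All genes were not matched to the members for level. The median member was at 3.16 CPM, while Ccdc39, Drc1 and Cfap54, with SDs below 0.20, were at 26.7, 20.5 and 9.08 CPM. The difference between control and depleted means accounted for a median of 2.77% of a choroid plexus gene's variance and 10.8% of a ciliary gene's, against 11.95% over all genes tested. Both medians were thus below that of all genes.

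Co-variation over the 8 mice was summarised by Pearson's r of each gene's log2 CPM with the mean of the other members of its set, as a description: the values come from the same 8 libraries and share their dissection and depth. Of the choroid plexus genes 11 of 16 had an r above 0.8 (Ttr, Folr1, Kl, Kcnj13, Otx2, Tmem72, Cldn2, Sostdc1, Kcne2, Slc4a5 and Calml4), from 0.82 to 0.98. In depleted mouse 1 these 11 were at 14.9% to 60.3% of the median of the other mice. The other 5 were Aqp1 (0.63), Enpp2 (0.61), Prlr (0.53), Clic6 (0.28) and Igfbp2 (0.25). Prlr and Clic6 followed the ciliary mean more closely, at r of 0.86 and 0.77. Without depleted mouse 1, 7 of the 16 were above 0.8; Kl (0.67), Otx2 (0.66), Kcnj13 (0.78), Cldn2 (0.79) and Kcne2 (0.78) were below it, and Enpp2 was at 0.91. Of the ciliary genes 19 of 30 had an r above 0.8 with the rest of their set, from 0.85 to 0.97, led by Ccdc153, Lrrc23, Hydin and Ak7, and the same 19 were above it without depleted mouse 1. The remaining 11 ranged from 0.79 for Fam183b to -0.26 for Dnah9, and Drc1 (0.08), Ccdc39 (0.16) and Dnah5 (-0.14) were near 0.

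**Figure D3:**
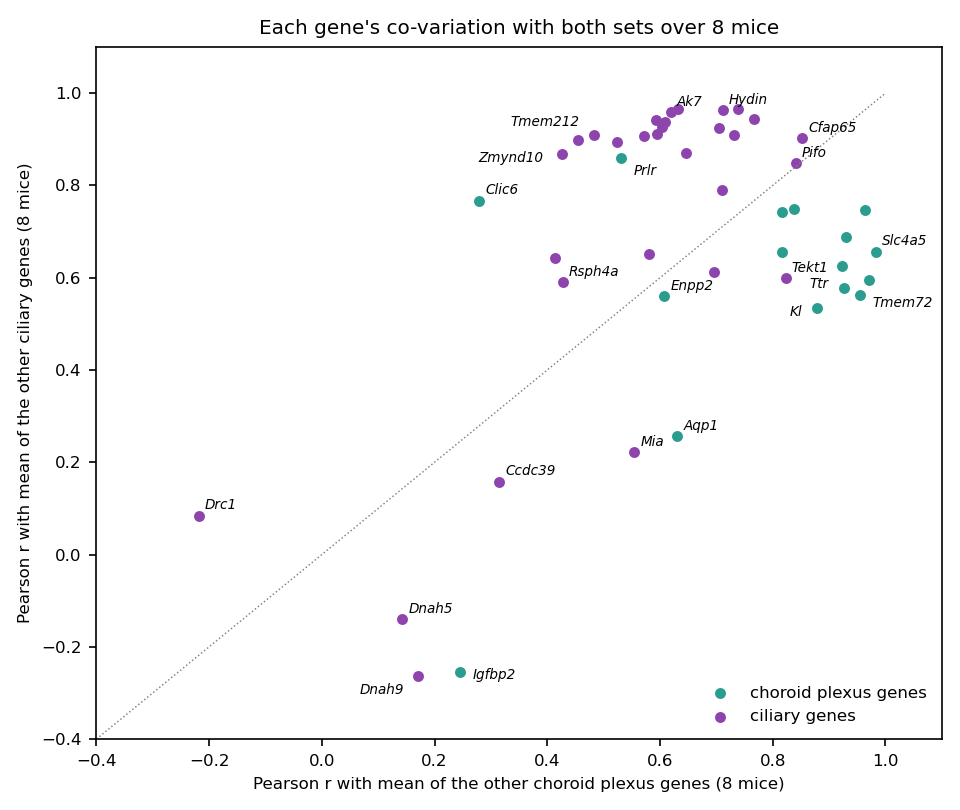
Pearson r over 8 mice of each member's log2 CPM with the mean of the other choroid plexus genes (horizontal) and of the other ciliary genes (vertical), each point a gene and the dotted line equality. Green choroid plexus points lie below the line in 14 of 16 genes and purple ciliary points above it in 24 of 30, with Prlr and Clic6 on the ciliary side.

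Pairs of genes gave the same picture. The median r was 0.64 over the 120 pairs within the choroid plexus set, 0.61 over the 435 pairs within the ciliary set and 0.51 over the 480 pairs between them. Pairs above 0.8 made up 32.5%, 34.0% and 5.63%. The means of both sets were related with an r of 0.74 over the 8 mice and 0.72 without depleted mouse 1. No test was made of whether these medians differ.

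The relation of 3 pairs of defining genes was tested over the 8 mice with exact two-sided permutation tests, adjusted over the 3 pairs. Ttr and Folr1 had a Pearson r of 0.67 (exact permutation p = 0.0337, adjusted 0.0505) and a Spearman rho of 0.86 (exact permutation p = 0.0107, adjusted 0.0321). The r was 0.69 within control and 0.82 within depleted mice, and 0.61 after depleted mice 1 and 4, the farthest in Ttr, were left out. Foxj1 and Rsph1 had an r of 0.81 (exact permutation p = 0.0189, adjusted 0.0505) and a rho of 0.69 (exact permutation p = 0.0694, adjusted 0.104). It was 0.96 within control and 0.94 within depleted mice, and 0.64 without depleted mouse 4 and control mouse 4. Ttr and Foxj1, the defining genes of the 2 sets, had an r of 0.30 (exact permutation p = 0.533) and a rho of 0.40 (exact permutation p = 0.327). Within control mice their r was -0.27 and within depleted mice 0.85, and without depleted mice 1 and 4 it was 0.08, so no relation between them was shown. Within-group values rest on 4 mice each.

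Set means in each mouse show both patterns together. The mean log2 CPM of the 16 choroid plexus genes was 2.58, 2.22, 2.63 and 2.74 in control mice 1 to 4 and 1.41, 2.58, 2.96 and 3.34 in depleted mice 1 to 4. That of the 30 ciliary genes was 1.51, 1.52, 2.11 and 1.5 in control mice and 1.36, 1.72, 2.27 and 2.23 in depleted mice. Depleted mouse 1 was lowest in both, but by far more in the choroid plexus set, and control mouse 3 was high in the ciliary set only. Ttr made up 54.9% to 59.5% of the CPM summed over the choroid plexus members in control mice and 18.6% in depleted mouse 1.

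**Figure D4:**
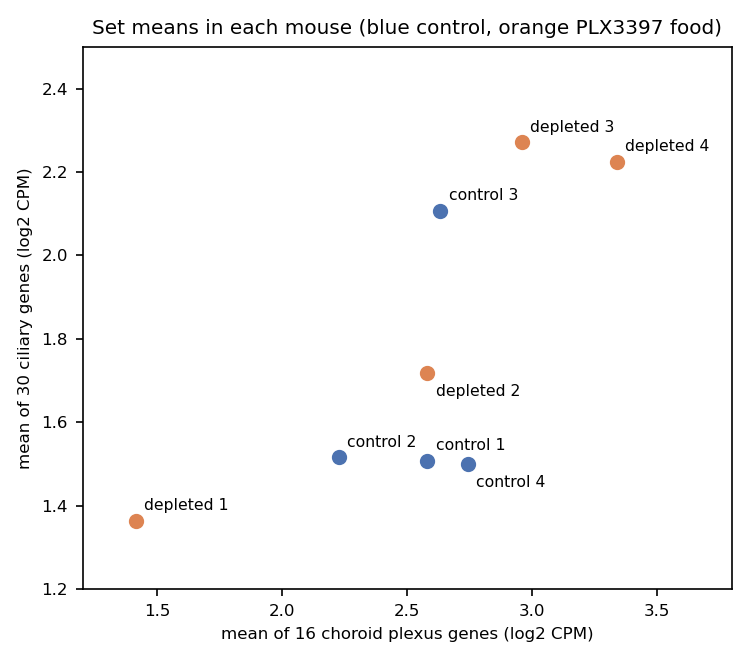
Mean log2 CPM of the choroid plexus genes (horizontal) against that of the ciliary genes (vertical), each point a mouse, blue for control and orange for PLX3397 food. Depleted mouse 1 stands at the lower left at 1.41 and 1.36, and control mouse 3 and depleted mice 3 and 4 form the upper group, at ciliary means of 2.11 to 2.27.

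Markers of other tissue also differed between the libraries. The r of their list means with the choroid plexus mean was 0.19 (leptomeningeal), 0.27 (hypothalamus), 0.32 (thalamus), -0.07 (striatum) and 0.27 (oligodendrocyte). With the ciliary mean it was -0.04, 0.52, 0.75, 0.45 and 0.62, in the same order. Tanycyte (-0.37 and -0.50) and subcommissural organ markers (-0.25 and -0.42) went the other way from both means. In depleted mouse 1 the mean log2 CPM of 13 leptomeningeal and fibroblast markers was 2.62, against 2.81 to 3.63 in the other mice, and that of 12 hypothalamus markers was -0.74, against -0.72 to 2.81. For control mouse 3, depleted mouse 3 and depleted mouse 4 the mean of 12 thalamus markers was 4.67, 4.39 and 4.06, against 3.21 to 4.02 in the others. That of 11 striatum markers was 6.29, 7.87 and 7.45, against 4.51 to 7.59, and that of the oligodendrocyte markers 7.64, 8.29 and 8.05, against 6.99 to 7.92. Beyond the added fits for hypothalamus and striatum given below, their part in the members' values was not tested.

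The depleted and control groups were compared in the edgeR fit over all 20140 genes. None of the 46 members passed an adjusted p of 0.05, where 1.16% of all genes did (223 lower and 11 higher in depleted mice). Neither DESeq2, which called 2.31% of the genes to which it gave an adjusted p, nor limma-voom, which called 1.16% of all genes, called a member. The smallest edgeR adjusted p was 0.362, for Dnah5 and for Enpp2. At an unadjusted p under 0.05 there were 5 members of 46, Enpp2, Clic6 and Foxj1 higher and Dnah5 and Dnah9 lower, a share near the 11.0% of all genes.

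In the edgeR fit most members leaned to the higher side without passing the test. The log2 fold change was above 0 for 13 of 16 choroid plexus genes and 24 of 30 ciliary genes, against 49.9% of all genes tested. With limma-voom most choroid plexus genes were instead below 0, while most ciliary genes stayed above it. The median was 0.08 for the choroid plexus genes and 0.22 for the ciliary genes, against -0.00038 over all genes. Since members of a set vary together, as described above, these counts are not those of independent genes. Steepest among ciliary genes were Tmem212 at 0.91 (SE 0.51), Dynlrb2 at 0.83 (SE 0.39), Dnah12 at 0.76 (SE 0.48) and Ak7 at 0.73 (SE 0.41). The 19 ciliary genes that varied together all had a positive fold change, from 0.17 to 0.91, while 5 of the other 11 did. These 19 were picked from the same mice, by an r above 0.8 with the rest of their set. The ciliary mean was itself higher in depleted mice (1.89 log2 CPM) than in control mice (1.66 log2 CPM). The selection thus favoured a positive fold change, and no conclusion is drawn from the contrast with the other 11. For 6 choroid plexus and 18 ciliary genes the 95% interval lay within a log2 fold change of 1 in either direction; for the others, Ttr among them, a 2-fold difference between the groups was within the interval.

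**Figure D5:**
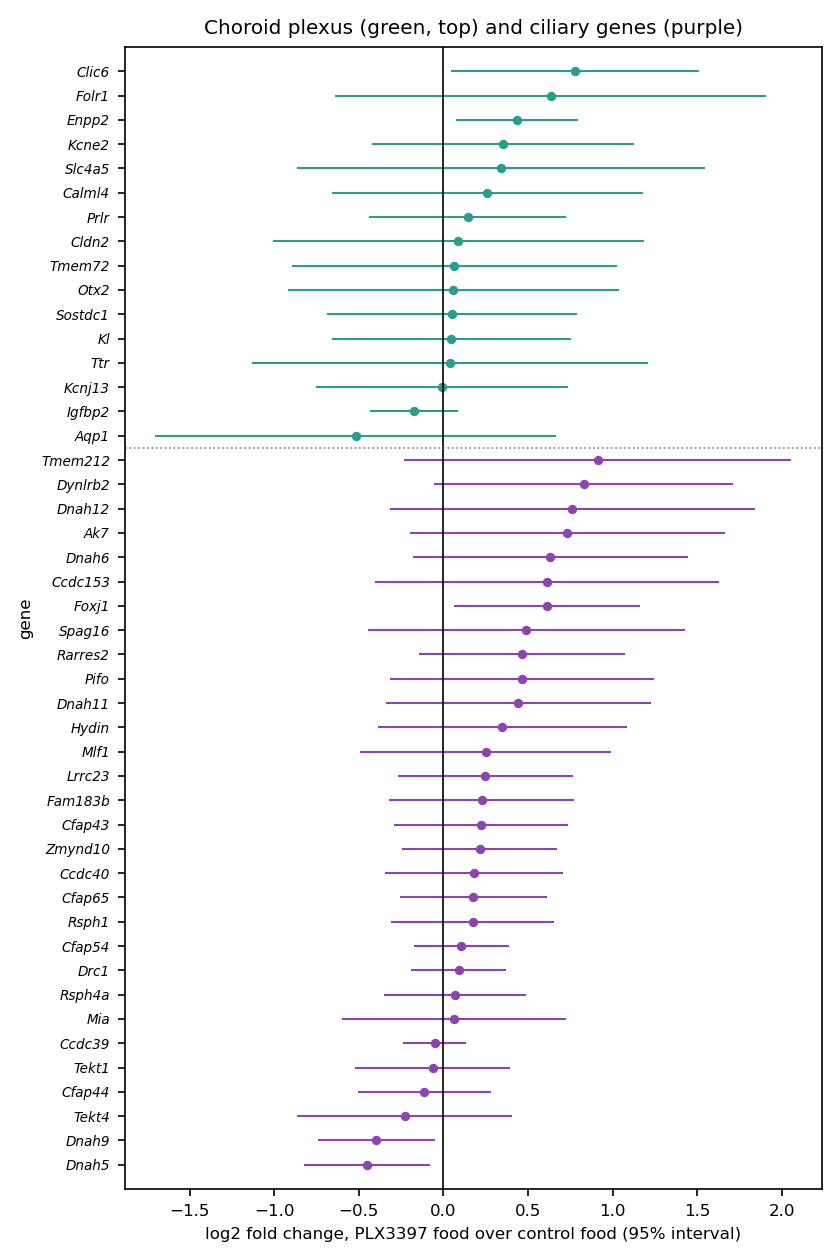
Log2 fold change of each member, depleted over control mice, with its 95% interval from the edgeR fit (n = 4 mice per group), choroid plexus genes in green above and ciliary genes in purple below the dotted line. Points lie to the right of 0 for 37 of 46 genes, and the interval leaves out 0 for Clic6, Enpp2, Foxj1, Dnah5 and Dnah9 alone, before any adjustment.

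Single mice decided the size of these medians. Without depleted mouse 1 the median log2 fold change was 0.38 for choroid plexus and 0.37 for ciliary genes, and without depleted mouse 4 it was -0.17 and 0.12. Without control mouse 2 the choroid plexus median was -0.02, and limma-voom gave -0.06, so its direction was not fixed. Without control mouse 3 the ciliary median was 0.42. With the mean of the striatum markers as a covariate, a fit added after seeing the data, the medians were 0.23 and 0.04, and with the presence of Hcrt as a block, also added, 0.08 and 0.23. None of these fits called a member.

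The sets were also set against each other within each mouse. The mean log2 CPM of the choroid plexus set minus that of the ciliary set was 0.89 ± 0.33 with control food and 0.68 ± 0.45 with PLX3397, and their difference of -0.21 lay within the spread. Without depleted mouse 1 the difference was 0.0014. The choroid plexus mean was 2.54 ± 0.22 in control and 2.57 ± 0.83 in depleted mice, and the ciliary mean 1.66 ± 0.30 and 1.89 ± 0.43.

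Other genes of the same tissues were counted from lists drawn up by name. Among 31 other choroid plexus genes tested, edgeR, DESeq2 and limma-voom each called 0 and 1 was at an unadjusted p under 0.05, and the median log2 fold change was 0.08. The lowest p belonged to Strip2 (39.9 ± 19.5 CPM with control food and 83.7 ± 33.6 CPM with PLX3397), then Cdhr4 (1.77 ± 0.949 CPM with control food and 3.34 ± 2.03 CPM with PLX3397). Neither followed the choroid plexus mean closely, at r of -0.09 for Strip2 and 0.50 for Cdhr4. With the ciliary mean they were at 0.44 and 0.86. Depleted mouse 1 was the lowest mouse for 19 of the 31, and the mean of the list followed that of the choroid plexus members with an r of 0.96. With the ciliary mean the list mean had an r of 0.78. Gene by gene, 9 of the 31 had an r above 0.8 with the choroid plexus mean, and the median r was 0.65. The genes whose level over mice was most like the choroid plexus mean, among 13906 genes outside the members whose log2 CPM averaged 1 or more, were 1500015O10Rik (r of 0.98), which is augurin and on that list, Luc7l2 (0.97), Drc7 (0.97), on the list of other motile cilia genes, Irf2bp2 (0.96) and Zfp948 (0.95). Msx1 (0.92), on the choroid plexus list, Gm28370 (0.91), Ccdc96 (0.91), Trim13 (0.91) and 2310009B15Rik (0.91) completed the first 10.

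Among 71 other motile cilia genes each of the 3 tools called 0 while 6 were at an unadjusted p under 0.05, and the median was 0.17. Armc4, a docking protein of the outer arms, had the lowest p (0.407 ± 0.039 CPM with control food and 0.852 ± 0.47 CPM with PLX3397), followed by Ccdc113 (2.68 ± 0.129 CPM with control food and 3.72 ± 0.931 CPM with PLX3397). Control mouse 3 and depleted mice 3 and 4 were the top 3 for 29 of the 71, and the mean of this list followed that of the ciliary members with an r of 0.98. With the choroid plexus mean the list mean had an r of 0.67. Gene by gene, 29 of the 71 had an r above 0.8 with the ciliary mean, and the median r was 0.74. Most like the ciliary mean were Ttc21a (0.97), 2410004P03Rik (0.96), Rrp8 (0.96), Lbp (0.95), on the choroid plexus list, Cdhr3 (0.95), Iqck (0.94), Slc35e4 (0.94), Tsku (0.94), Lsg1 (0.94) and Tgfbr3l (0.94).

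Upstream regulators were counted in the same way. Of 17 multiciliogenesis regulators, 0 were called by the 3 tools and 1 was at an unadjusted p under 0.05, Mcidas, a coactivator that starts the programme (0.363 ± 0.0936 CPM with control food and 0.565 ± 0.143 CPM with PLX3397), followed by Ccno, a cyclin-like protein of centriole amplification (2.24 ± 0.293 CPM with control food and 3.07 ± 0.875 CPM with PLX3397). Myb and Rfx2, factors of the programme, followed the ciliary mean with r of 0.89 and 0.75, whereas Rfx3, abundant at a median of 60.2 CPM, had an r of -0.61; these 3 were picked after their values had been seen. Of 31 intraflagellar transport genes, which serve primary cilia of neurons as well, 0 were called by the 3 tools and 1 was at an unadjusted p under 0.05. Ift52 (25.1 ± 2.93 CPM with control food and 30.5 ± 2.56 CPM with PLX3397) and Bbs9 (16.7 ± 1.26 CPM with control food and 18.9 ± 1.35 CPM with PLX3397) had the lowest p-values. The mean of that list stayed between 4.97 and 5.07 log2 CPM in all 8 mice, and its r with the ciliary mean was 0.08.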

How the data were processed

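Bulk RNA sequencing of the whole forebrain of 4 control and 4 depleted mice was analysed from 1 deposited table, which holds whole-number read counts by gene symbol without normalization. The authors used STAR, FastQC, MultiQC, DESeq and DESeq2 on the mm10 build, per the submitters' processing notes. Tool versions, the annotation and the strand setting were not given in the sources used here. Samples were grouped by their titles. The members and lists were chosen with earlier results of these data known.

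Genes were filtered with filterByExpr, scaled by TMM, and compared by the quasi-likelihood test of edgeR 4.0.16 in R 4.3.3 (glmQLFTest after glmQLFit), with Benjamini-Hochberg adjustment over all 20140 genes and a threshold of 0.05. The labels name no batch. Log2 CPM used a prior count of 2. Of the symbols 49721 matched GENCODE M21, and 14 members overlap an exon of a second gene, 4 on the same strand. Those not named above are Enpp2 (Gm26684), Cfap65 (Gm15841) and Zmynd10 (Gm34106), each on the opposite strand. The least different replicate pair differed by 12.3 times sampling noise per gene, so each library was counted once.

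Named with all mice were 18 members fixed by name; Clic6 and Dnah9 were added for their p-values and Prlr after its values were seen, and in each other list the 2 genes with the lowest p are named (1 microglia marker is not reported here), as are the 10 genes most like each set. Lists were other choroid plexus, other motile cilia, multiciliogenesis, intraflagellar transport, leptomeningeal, hypothalamus, striatum, thalamus, tanycyte, subcommissural organ, pituitary and pineal, blood, oligodendrocyte, microglia and border macrophage genes. Alternatives were DESeq2 1.42.0, limma-voom (limma 3.58.1), other scalings, filters and prior counts, the replicate number as a block, leaving out each mouse, and 2 added fits with tissue markers. On simulated counts of this comparison, over 2 runs of 20140 genes with the changed genes drawn at 0.5 CPM or more, the test found 75% of genes changed 2-fold and 100% of those changed 4-fold, and 4.37% of calls were false.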

Additional observations from a re-analysis of the deposited data

Results flagged for a closer look

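In a group of 4 mice, a value was taken as standing apart where its gap to the nearest other mouse exceeded Dixon's 95% critical share of the group's range, which chance gives in about 5% of groups. Of 96 groups examined (46 members and both set means, in 2 groups), 2 did so on the log2 CPM scale. Tmem212, a gene of multiciliated cells, was at 2.59 CPM in control mouse 3 and at 0.804, 0.762 and 0.758 CPM in the other control mice, with a gap of 0.953 of the range on the log2 CPM scale. The mean of the 30 ciliary genes was 2.11 log2 CPM in the same mouse, with a gap of 0.972 of the range. Depleted mouse 1, the lowest for most choroid plexus genes, was not among them, in any member or in either mean. On the CPM scale, computed after seeing the data, 4 member groups did so: Tmem212 again, Ccdc153 (a gap of 0.842 of the range) and Ak7 (0.853) in control mouse 3 and Dnah9 (0.841) in depleted mouse 2.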

How the results depend on the processing

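No member was called under any of the 17 alternatives. The fold changes of several choroid plexus genes are near 0 and their sign is not fixed. With the replicate block Ttr was at -0.30, Kl at -0.0098 and Cldn2 at -0.096, and the medians were 0.0061 for choroid plexus and 0.22 for ciliary genes; of the 4 same-numbered pairs, those of number 3 deviated together (r of 0.56) and the others did not (-0.26, -0.27 and -0.06), Hcrt was high in mice 2 and 3 of both groups, and the block changed no call. With limma-voom Ttr was at -0.37, Kl at -0.034, Otx2 at -0.022 and Cldn2 at -0.20. With the striatum covariate, added after seeing the data, Aqp1 was at 0.56, Igfbp2 at 0.028, Rsph1 at -0.084 and Dnah11 at -0.13. Leaving out 1 mouse at a time, the fold change ranged from -0.37 to 0.39 for Ttr, -0.12 to 0.29 for Kl, -0.24 to 0.26 for Kcnj13, -0.29 to 0.32 for Otx2, -0.87 to 0.15 for Aqp1, -0.22 to 0.43 for Cldn2 and -0.20 to 0.11 for Tekt1. The r of Ttr and Folr1 ranged from 0.59 to 0.80 and that of Foxj1 and Rsph1 from 0.71 to 0.94; by library size alone they were 0.68 and 0.82, both with an adjusted exact permutation p of 0.0387. The cause of these changes was not tested. The choroid plexus mean difference ranged from -0.23 without depleted mouse 4 to 0.41 without depleted mouse 1. With 4 mice a group, changes of 2-fold could be missed in genes this variable. In the most variable of them, such as Ttr (SE 0.52), larger changes could be missed too.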

Other observations

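Markers of tissue next to the ventricles and of other cells that a forebrain dissection could hold gave the following values, in the same edgeR fit and with no test of a list. Border macrophages, which also sit on the choroid plexus, are given first: of 7 markers tested 3 were called lower by edgeR, where DESeq2 and limma-voom also called 3, among them Stab1, a scavenger receptor (11.7 ± 1.89 CPM with control food and 2.18 ± 0.513 CPM with PLX3397, edgeR adjusted p = 5.60e-05), and Mrc1, the mannose receptor (0.513 ± 0.0637 CPM with control food and 0.0945 ± 0.0218 CPM with PLX3397, edgeR adjusted p = 0.0010). Among the microglia markers Tmem119 was at 15.6 ± 1.47 CPM with control food and 0.767 ± 0.165 CPM with PLX3397.

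Of 9 genes tested from a list of markers of tanycytes, the specialised ependyma of the third ventricle, edgeR and limma-voom called 0 and DESeq2 called 1. At an unadjusted p under 0.05 there were 3. The list mean was 4.05, 4.17, 4.11 and 4.03 log2 CPM in control mice 1 to 4. In depleted mice 1 to 4 it was 3.90, 4.18, 3.83 and 3.65 log2 CPM. Whether the levels of these genes in whole forebrain come from tanycytes was not tested. Their median log2 fold change was -0.13, with Crym (129.9 ± 11 CPM with control food and 98.6 ± 15.5 CPM with PLX3397) and Lhx2 (56 ± 8.3 CPM with control food and 39.5 ± 10.5 CPM with PLX3397) lowest in p. The 13 leptomeningeal and fibroblast markers had a median of -0.10, with 0 called by the 3 tools, 1 at an unadjusted p under 0.05, and Dcn (42.5 ± 10.2 CPM with control food and 19.7 ± 17.6 CPM with PLX3397) and Ogn (12 ± 3.55 CPM with control food and 8.62 ± 3.07 CPM with PLX3397) lowest in p. All 11 striatum markers were above 0, with a median of 1.43, 0 called by the 3 tools, 10 at an unadjusted p under 0.05, and Pde10a (168 ± 76.8 CPM with control food and 404 ± 186 CPM with PLX3397) and Rarb (4.37 ± 2.35 CPM with control food and 11.7 ± 6.14 CPM with PLX3397) lowest in p. For 12 hypothalamus, 12 thalamus, 4 subcommissural organ, 4 pituitary and pineal and 4 blood cell markers tested, the 3 tools called 0 and 0 were at an unadjusted p under 0.05, with medians of 0.14, 0.07, 0.08, -0.04 and 0.09. The lowest p-values there belonged to Agrp and Hdc, Lef1 and Rora, Sspo and Pcsk1, Aanat and Tph1, and Hbb-bt and Alas2, with log2 fold changes of -0.21, 0.25, -0.31, 0.12, 0.37, -0.18, -0.12, -0.27, 0.49 and -0.35. The subcommissural organ marker Cyp2a22 had 0 counts in all 8 libraries. The oligodendrocyte markers with the lowest p were Cldn11 (159.99 ± 22.4 CPM with control food and 246 ± 38.1 CPM with PLX3397) and Mal (219 ± 31.3 CPM with control food and 335 ± 51.6 CPM with PLX3397).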
